A study of Mus musculus with 11 samples.

Results

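The peaks described here are places in the embryonic mouse forebrain where H3K27me3, a histone mark found at silenced genes, was called in 3 neurogenic regions and not in the fourth. They were selected on the called peaks themselves, as peaks of the lateral ganglionic eminence (LGE) on chromosomes 1 to 19 and X with at least 50% of their bases under peaks of the caudal ganglionic eminence (CGE), at least 50% under peaks of the cortex (CTX) and no base under a peak of the medial ganglionic eminence (MGE). Of 16851 LGE peaks, 1386 (8.23%) met these conditions, and they made up 13.3% of the 10396 LGE peaks shared with CGE and CTX. They are called MGE-absent peaks below. Their absence from MGE and their sharing with CGE and CTX are the conditions of the selection and are not results. The MGE list was the shortest of the 4, and 395 peaks met the same conditions after the weakest peaks of CGE, LGE and CTX had been dropped until each covered no more bases than MGE did (lists of equal covered bases, below).

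H3K27me3 was profiled by CUT&Tag, in which an antibody directs a transposase to nucleosomes carrying the mark, in wild-type C57BL/6J embryos with no treatment. The series has 11 samples, 2 from MGE and 3 each from CGE, LGE and CTX, and reads of a region's samples were pooled by the authors ahead of broad peak calling, so that every value below comes from 1 list per region, has no replicate error and was not tested. The embryos were at embryonic day 12.5 for this assay, as the study's text has it, while the labels' protocol names days 12.5 and 14.5 without the age of each sample. That protocol names somatosensory cortex and has a sentence on pooling equal numbers of nuclei from the regions, whereas the label of each sample names a single region. By their titles, the samples of each region are of replicates 1 and 2, and the sample that CGE, LGE and CTX have beyond those of MGE is a second one of replicate 2. Per the study's methods, tissue of several embryos was combined for each experiment, and the sequencing depth summed over a region's replicates was lowest for MGE. In bulk tissue, fewer cells with the mark and less mark per cell cannot be told apart.

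H3K27me3 is written by Polycomb repressive complex 2, which is recruited mainly to unmethylated CpG-rich DNA, and it can spread from there into broad domains. In the developing forebrain it covers the promoters of many transcription factors that are active in one territory and silent in another. The MGE is the ventral territory patterned by Sonic hedgehog that expresses *Nkx2-1* and gives rise to cortical interneurons containing parvalbumin or somatostatin, the LGE gives rise mainly to striatal projection neurons, the CGE to other interneurons, and the cortex to excitatory neurons.

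The sequences below show the kind of DNA under these peaks, beside a start site that was marked in all 4 lists. The first 3 are the middle 300 bases of the MGE-absent peak with the largest −log10 q in LGE among those nearest to *Nkx2-1* (chr12:56484604-56484903), *Robo1* (chr16:72508492-72508791) and *Gsx1* (chr5:147152175-147152474), on the plus strand. The next is the start of *Myt1l* (chr12:29528134-29528433, plus strand), 250 bases before to 50 after the annotated 5′ end, which lies wholly in an MGE-absent peak. The last is the start of *Nkx2-1* (chr12:56536859-56537158, minus strand), cut in the same way, of which all 300 bases were under peaks in MGE, CGE, LGE and CTX. The build is GRCm38, each sequence runs 5′ to 3′, and capitals mark every CpG dinucleotide.
Nkx2-1 distal: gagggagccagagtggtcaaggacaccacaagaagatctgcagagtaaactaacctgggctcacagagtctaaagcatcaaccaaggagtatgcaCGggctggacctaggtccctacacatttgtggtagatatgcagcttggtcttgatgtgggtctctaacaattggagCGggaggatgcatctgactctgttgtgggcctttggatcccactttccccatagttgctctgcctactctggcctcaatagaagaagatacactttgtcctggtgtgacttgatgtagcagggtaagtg
Robo1 intron: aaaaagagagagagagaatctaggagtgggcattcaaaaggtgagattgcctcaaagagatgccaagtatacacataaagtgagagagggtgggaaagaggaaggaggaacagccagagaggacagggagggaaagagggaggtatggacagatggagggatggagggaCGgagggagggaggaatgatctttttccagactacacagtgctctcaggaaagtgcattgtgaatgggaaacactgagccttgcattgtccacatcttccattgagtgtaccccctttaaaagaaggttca
Gsx1 upstream: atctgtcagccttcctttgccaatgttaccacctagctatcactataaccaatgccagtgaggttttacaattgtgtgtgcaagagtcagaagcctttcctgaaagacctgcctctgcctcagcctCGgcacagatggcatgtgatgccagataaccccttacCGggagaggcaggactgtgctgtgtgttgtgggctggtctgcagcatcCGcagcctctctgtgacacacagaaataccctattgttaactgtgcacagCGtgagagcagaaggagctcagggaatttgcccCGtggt
Myt1l start: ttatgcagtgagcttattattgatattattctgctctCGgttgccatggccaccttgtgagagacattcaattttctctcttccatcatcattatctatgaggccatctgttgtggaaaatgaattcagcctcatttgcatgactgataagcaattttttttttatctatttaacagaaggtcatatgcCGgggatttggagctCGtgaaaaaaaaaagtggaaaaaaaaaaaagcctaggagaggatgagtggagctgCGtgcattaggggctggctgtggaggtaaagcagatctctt
Nkx2-1 start: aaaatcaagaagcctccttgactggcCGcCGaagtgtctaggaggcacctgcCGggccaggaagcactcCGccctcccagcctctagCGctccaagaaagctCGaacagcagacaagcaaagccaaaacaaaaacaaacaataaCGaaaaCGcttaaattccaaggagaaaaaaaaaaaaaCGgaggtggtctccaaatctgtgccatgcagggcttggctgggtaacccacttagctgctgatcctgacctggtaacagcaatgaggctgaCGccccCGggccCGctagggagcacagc
The *Nkx2-1* distal and *Robo1* windows hold 2 and 1 CpG, the *Gsx1* window 5 and the *Myt1l* start 4, against 12 at the *Nkx2-1* start. The median over the middle windows of all MGE-absent peaks was 4 CpG, against 10 for the 8271 LGE peaks shared with CGE, CTX and MGE at 50% or more, which serve as the comparison below and are called peaks shared by all 4 lists. Among peaks that touched the 2 kb before a 5′ end, these medians were 18 and 16. The 4 CpG at the *Myt1l* start were fewer than both medians, but that window is placed by the 5′ end and not by the middle of a peak.

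*Nkx2-1*, the transcription factor that specifies MGE identity, had 9 MGE-absent peaks nearest to its 5′ end, a number exceeded only by *Tle3* with 11. Its promoter, taken here as 2 kb of sequence before the annotated 5′ end, was fully covered in all 4 lists, so the called extent there did not set MGE apart. The strength of the call did differ. The peak over the 5′ end had a −log10 q of 3.86 in MGE, against 31.7 (CGE), 33.7 (LGE) and 33.3 (CTX). The part of sequencing depth in these values was not tested. Coverage differed in the sequence beyond the gene, on the side of *Mbip*, its neighbour. From 30 to 100 kb downstream of the *Nkx2-1* 5′ end (chr12:56436908-56506907), 4104 bases were under MGE peaks, against 27761 (CGE), 26370 (LGE) and 34563 (CTX). These are 5.86%, 39.7%, 37.7% and 49.4% of the stretch. With lists of equal covered bases the shares were 5.86%, 30.2%, 37.7% and 44.1% in the same order, and with peaks of a q-value under 0.001 they were 5.21%, 34.8%, 36.1% and 43.7%. MGE had the lowest coverage under each of these settings. Over the first 30 kb the lists were closer, with 37.4% covered in MGE and 49.5% to 49.9% in the others.

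This stretch was picked out after its values had been seen. It holds 10 MGE-absent peaks, and 12 lie between the 5′ ends of *Mbip* and *Nkx2-1*, which are 191 kb apart. The 10 cover 14190 of the 26370 LGE bases in the stretch and have no MGE base by the selection. Part of the contrast in coverage was thus set in advance. A run of 7 MGE-absent peaks, each within 10 kb of the next, extends over 28446 bases (chr12:56465745-56494190), where 1 MGE peak of 2100 bases lies between them. The one at chr12:56465745-56468096 was among the 10 strongest of all MGE-absent peaks, ranked by the smallest −log10 q over LGE, CGE and CTX. It was 70.0 kb from the 5′ end and had a −log10 q of 9.99 in LGE, 23.4 in CGE and 24.1 in CTX. The one at chr12:56476650-56480667 was 58.2 kb away and had 9.06, 15.3 and 17.7, but it met the conditions under 3 of the 10 alternatives that kept LGE as the source, and not with equal covered bases or a q-value under 0.001. The q-values of both lay far above the medians of MGE-absent peaks, which were 2.72 in LGE, 3.31 in CGE and 3.54 in CTX. Of the 9 MGE-absent peaks whose nearest 5′ end was that of *Nkx2-1*, at distances of 32.3 to 91.6 kb, 4 met the conditions with lists of equal covered bases and 5 with a q-value under 0.001 in all lists.

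**Figure D1:**
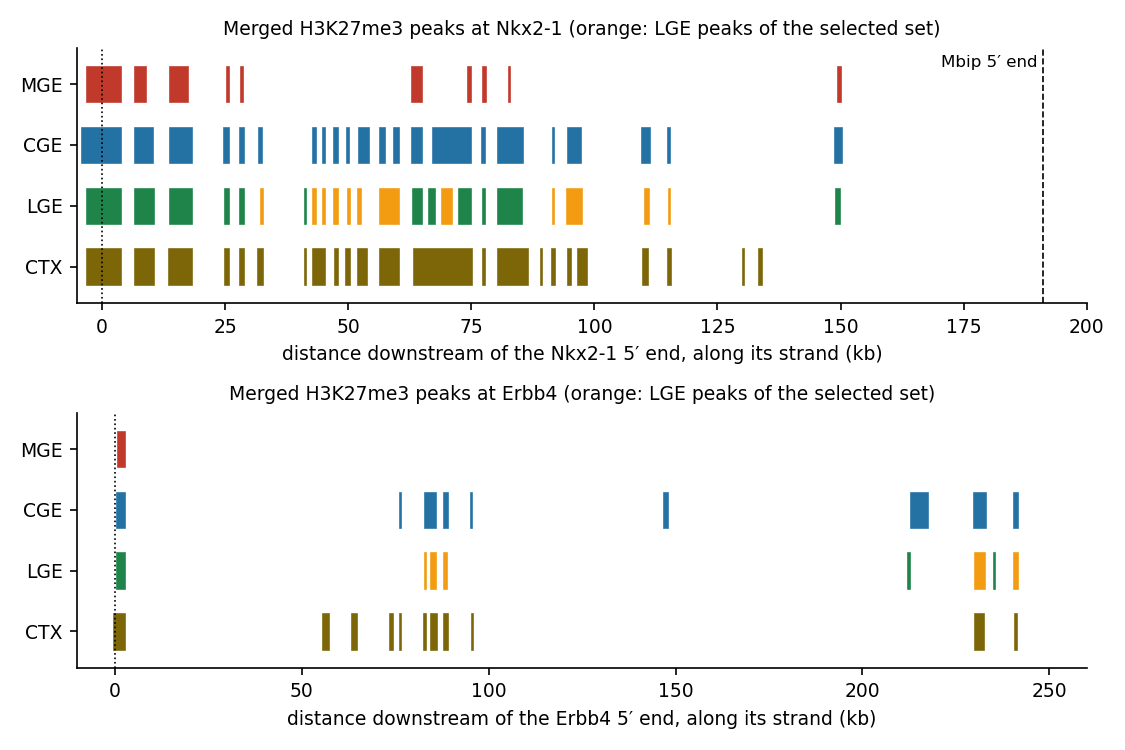
Peaks of the 4 merged lists along the first 200 kb downstream of the *Nkx2-1* 5′ end and the first 260 kb of *Erbb4*, drawn to scale, with distance in kb on the horizontal axis and 1 row per region. Orange LGE peaks are MGE-absent. The MGE row holds 4 peaks between 30 and 100 kb from *Nkx2-1*, where the other rows hold 14 to 16, and a single peak in *Erbb4*, at its 5′ end.

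*Erbb4*, a receptor for neuregulins on interneurons that migrate from the MGE, held 5 MGE-absent peaks, all in introns. They lay 82.9, 85.2, 88.4, 231 and 241 kb downstream of the 5′ end. Their −log10 q in LGE was 12.4, 6.82, 3.82, 3.76 and 3.07, so the narrowest of them, at 435 bases, was the strongest. The only MGE peak in the 1076 kb body lay near the 5′ end and covered 2039 bases, against 18867 bases in 9 CGE peaks, 12743 in 11 LGE peaks and 16961 in 13 CTX peaks. Each MGE-absent peak was therefore 79.9 to 238 kb from the nearest MGE peak. With lists of equal covered bases, the covered share of the body was 0.190% (MGE), 0.771% (CGE), 1.03% (LGE) and 1.08% (CTX), and 4 of the 5 peaks still met the conditions.

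The other genes of the MGE lineage were less uniform. Of 32 genes listed for this lineage, 2 (*Erbb4* and *Lmo3*, a LIM-only cofactor) had an MGE-absent peak in the body or the 2 kb upstream, against 636 of 21755 protein-coding genes (2.92%). Counted by the nearest 5′ end, 10 of the 32 (31.2%) were next to an MGE-absent peak, against 1024 of all genes (4.71%). *Nkx2-1* had 9, *Gbx2* had 7, *Erbb4* 5, *Mbip* 4, *Lmo3* 2, and others, among them *Gad2*, *Nkx6-2*, *Maf* and *Olig1*, 1 each. Several of these genes had many shared peaks of any kind beside them, so the shared peaks were also taken as the base. Of 135 LGE peaks shared with CGE and CTX whose nearest gene was on the list, 32 (23.7%) had no MGE base, against 13.3% over all genes. With lists of equal covered bases the shares were 14 of 105 (13.3%) and 5.13%. Without *Nkx2-1* and *Mbip* the share was 19 of 112 (17%), and without *Gbx2* and *Erbb4* as well it was 7 of 88 (7.95%). The higher share therefore rested on these 4 genes, which were set aside after their counts were seen.

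As deposited, peaks near the same genes that lacked CGE or CTX in place of MGE made up smaller shares, but for CTX the order turned round with equal covered bases. Of 83 LGE peaks beside MGE lineage genes that were shared with MGE and CTX, 0 lacked CGE, against 2.51% over all genes, a count that allows a share of up to 3.61% and so could not be set below that of all genes. Of 97 shared with MGE and CGE, 11 (11.3%) lacked CTX, against 9.40%. With lists of equal covered bases, 1 of 75 (1.33%) lacked CGE, against 6.53% over all genes, and 17 of 93 (18.3%) lacked CTX, against 15.3%, which is above the 13.3% that lacked MGE. Only CGE, LGE and CTX lost peaks in those lists, so the change of order follows in part by construction. Beside *Lhx6*, *Lhx8*, *Sox6*, *Satb1*, *Dlx1*, *Dlx5* and *Sst*, other genes of this lineage, there was no MGE-absent peak. Peaks next to *Gbx2*, a homeobox gene expressed in MGE-derived cells, were spread over 15.7 to 225 kb from its 5′ end on both sides, 4 of them in introns of its neighbour *Agap1*. Their −log10 q in LGE ran from 2.01 to 6.30, and 2 of 7 met the conditions with lists of equal covered bases.

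**Figure D2:**
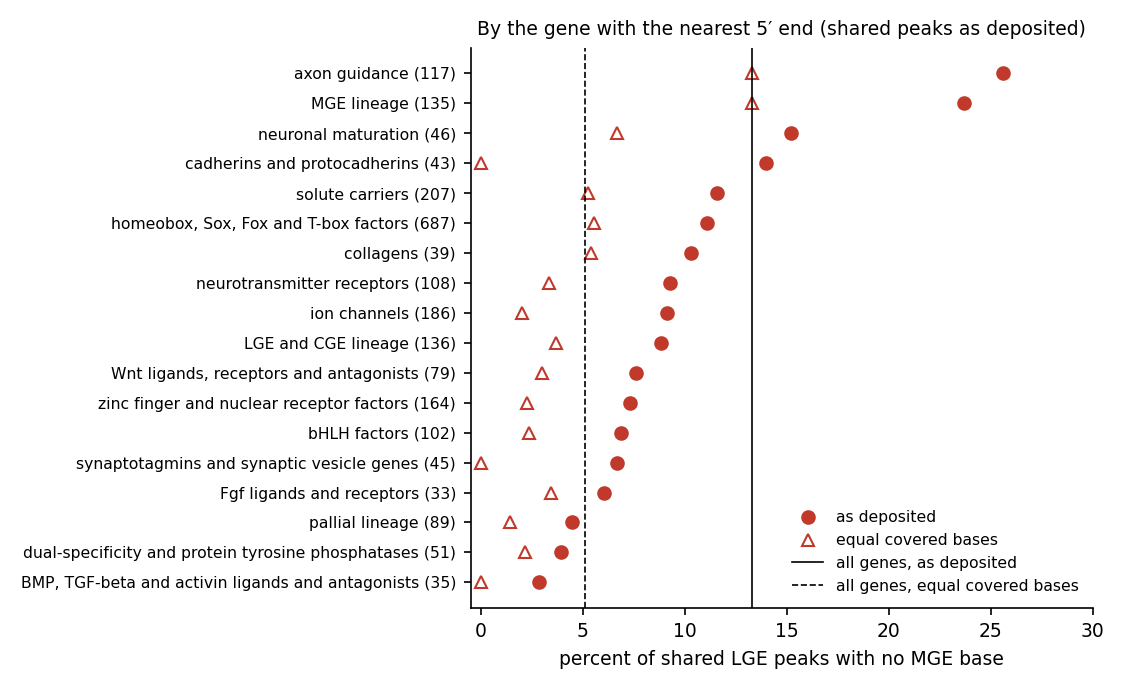
For each gene list, the percentage of LGE peaks shared with CGE and CTX that had no MGE base, by the list of the gene with the nearest 5′ end. Filled circles show the lists as deposited and open triangles lists of equal covered bases; vertical lines give all genes (13.3% and 5.13%), numbers in brackets give the shared peaks as deposited, and lists with fewer than 30 are left out. Axon guidance genes (25.6%) and MGE lineage genes (23.7%) stand farthest to the right of all genes. Most lists stand to the left, among them pallial lineage genes (4.49%), with genes of BMP and related ligands (2.86%) lowest.

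The lists for the other territories had smaller shares of peaks without MGE than the full MGE list, at 23.7%. Without *Nkx2-1*, *Mbip*, *Gbx2* and *Erbb4*, the MGE list had 7.95%, between the pallial list (4.49%) and the LGE and CGE list (8.82%). After covered bases had been made equal, this reduced MGE list had 4.11%, against 1.45% (pallial) and 3.70% (LGE and CGE). The contrast with the LGE and CGE list thus rested on those 4 genes. Of 89 shared peaks beside 35 pallial lineage genes, which specify cortical excitatory neurons, 4 (4.49%) had no MGE base. These were 3 peaks nearest to *Fezf1*, in introns of *Cadps2*, and 1 in an intron of *Sox5*. Such a low share was not particular to a territory. It was 1 of 35 (2.86%) for genes of BMP and related ligands and 2 of 51 (3.92%) for phosphatase genes. Of 136 shared peaks beside LGE and CGE lineage genes, 12 (8.82%) had none, with 5 beside *Gsx1*, 4 beside *Prox1* and 1 each beside *Nr2f2*, *Pbx3* and *Six3*. *Gsx1* is a homeobox gene of ganglionic eminence progenitors, and its 5 peaks formed a run over 18831 bases, 25.5 to 43.9 kb upstream of the 5′ end (chr5:147144570-147163400). Its strongest peak, at chr5:147151747-147152903, had a −log10 q of 12.8 in LGE, 14.0 in CGE and 15.9 in CTX, with an MGE peak 2.16 kb away. MGE peaks covered 7.29% of this run and LGE peaks 22.9%, with 24.2% under CTX peaks and 44.7% under CGE peaks.

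Axon guidance genes had the highest share as deposited of the lists with at least 30 shared peaks, and a share level with that of MGE lineage genes with equal covered bases. These genes encode secreted or membrane cues and their receptors, which steer growing axons and migrating neurons. Of 72, 11 had an MGE-absent peak in the body or the upstream 2 kb (15.3%, against 2.92% of all genes), though genes with such a peak were long, with a median span of 50914 bases against 19414 for all genes. Of 117 shared peaks nearest to these genes, 30 (25.6%) had no MGE base, and with lists of equal covered bases 11 of 83 (13.3%) had none. Without *Efna5* and *Ephb1*, which had 5 each and were set aside after their counts were seen, the shares were 20.6% and 8.57%.

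Among the receptors, *Robo1*, a receptor for Slit proteins, held the strongest of all MGE-absent peaks (chr16:72508177-72509106). It is an intronic peak of 930 bases, 200 kb downstream of the 5′ end, with a −log10 q of 26.0 in LGE, 16.1 in CGE and 27.7 in CTX, and the nearest MGE peak was 154 kb away. Another 3 lay 204 to 256 kb from the 5′ end, at −log10 q values of 2.19 to 6.63 in LGE. *Ephb1*, a receptor for ephrin-B ligands, had 4 in introns, the strongest at chr9:102259913-102261421 with 13.3, 6.76 and 9.46. The netrin receptor gene *Unc5c* had 2, both with a −log10 q under 3 in LGE. The receptor genes *Epha8* and *Plxna2* had 1 each in the body.

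Among the ligands, *Slit3* was one of the genes with the most MGE-absent peaks in their body, at 9. They were intronic, 344 to 2424 bases wide, and their −log10 q in LGE ran from 1.93 to 6.33. MGE peaks covered 4.38% of the 587 kb body, LGE peaks 9.06%, CGE peaks 10.2% and CTX peaks 10.4%. With lists of equal covered bases CGE was close to MGE here (5.20% against 4.38%), while LGE (8.91%) and CTX (8.74%) stayed higher. *Slit1* had 1 intronic peak of 2466 bases, *Efnb3* 1 at its 5′ UTR and *Sema6b*, a membrane semaphorin gene, 1 with its midpoint in a coding exon. In *Sema4c*, of the same family, an MGE-absent peak of 1715 bases lay over the promoter, which was covered to 100% in CGE and CTX and to 60.6% in LGE. Its −log10 q was 2.22 in LGE, 4.64 in CGE and 2.19 in CTX, and it did not meet the conditions with lists of equal covered bases. The peak nearest to *Efna5* with the largest values, 12.7 in LGE, 16.7 in CGE and 28.1 in CTX, was in an intron of *Fbxl17*, 294 kb upstream of the *Efna5* 5′ end.

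*Ptch1*, which encodes a receptor of Sonic hedgehog and is transcribed in cells that respond to it, carried an intronic MGE-absent peak of 1681 bases (chr13:63557716-63559396), 15.0 kb inside the gene. Its −log10 q was 3.87 in LGE, 1.54 in CGE and 4.81 in CTX, with an MGE peak 5.87 kb away, and it met the conditions under 5 of the 10 alternatives that kept LGE as the source. Of 19 shared peaks nearest to genes of this pathway, 2 (10.5%) had no MGE base, against 13.3% over all genes.

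Of 40 genes of mature neurons, 6 had an MGE-absent peak in the body or upstream 2 kb (15.0%, against 2.92% of all genes), among them the splicing regulator genes *Rbfox1* and *Rbfox3*, the neurexin gene *Nrxn3*, *Chga* and *Myt1l*. The span is again long for several of them, and by the nearest 5′ end 7 of 46 shared peaks (15.2%) had no MGE base, close to the 13.3% over all genes. It was 2 of 30 (6.67%), against 5.13%, with lists of equal covered bases. *Myt1l*, a zinc finger factor of differentiating neurons, stood out among these by its promoter peak of 2532 bases (chr12:29526246-29528777), which had a −log10 q of 16.3 in LGE, 14.1 in CGE and 13.2 in CTX. The promoter was covered to 100% in CGE and LGE and to 92.5% in CTX, and the nearest MGE peak lay 3.32 kb from the MGE-absent one. *Chga*, which encodes chromogranin A of secretory granules, had a peak of 1740 bases at its promoter with 3.02, 2.53 and 21.8, and an MGE peak was 2.44 kb away.

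Few promoters combined complete absence of MGE with wide coverage in the other lists. The base here is all protein-coding promoters, since those marked in the other lists were not counted. Of 21755 protein-coding promoters, 18 (0.0827%) had no MGE base and at least 50% coverage in LGE, CGE and CTX, and 12 of these were touched by an MGE-absent peak. Beside those above they included *Fbxo31*, an F-box protein gene, with 100% of the promoter under MGE-absent peaks, *Fbrsl1* with 87.1%, *Kif13a*, a kinesin gene, with 78.9%, and *Hesx1*, a homeobox gene of the anterior forebrain and pituitary, with 77.7%. The −log10 q in LGE, CGE and CTX was 3.06, 1.62 and 2.38 at *Fbxo31* and 3.39, 2.47 and 6.28 at *Fbrsl1*. Neither of these peaks met the conditions with lists of equal covered bases or a q-value under 0.001. The remaining 6, among them *Dagla* and *Khdrbs3*, were covered by LGE peaks that reached MGE peaks elsewhere or were shared less widely. Promoters brushed by an MGE-absent peak were more common, at 186 genes, but the median share of the promoter under such peaks was 17%, and 15 promoters reached 50%.

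The position of MGE-absent peaks in genes differed from that of peaks shared by all 4 lists. By the midpoint, 48.3% were intergenic, against 24.9%, and 33.8% were intronic, against 37.3%. Promoters held 7.94% against 13.2%, 5′ UTRs 2.89% against 9.54% and coding exons 5.12% against 11.7%, while 3′ UTRs held 1.44% and 1.11%. Counted by any base, 12.2% of MGE-absent peaks touched a promoter (exact 95% interval 10.5% to 14.0%), against 43.0% (42.0% to 44.1%). With a q-value under 0.001 in all lists 21.1% of the peaks that met the conditions touched a promoter, and 18.7% of MGE-absent peaks did with the 5′ ends of all annotated transcripts. These intervals cover counting error over peaks of 1 set of lists only.

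The lower promoter share was seen at every peak strength. Among peaks with a −log10 q under 2 in LGE, 10.6% of MGE-absent peaks and 28.6% of peaks shared by all 4 lists touched a promoter. From 3 to 5 the shares were 13.8% and 34.8%, and at 10 or more they were 7.14% of 42 peaks and 50.3% of 4736. Peak width was not matched in these classes, and MGE-absent peaks were narrower in all but the weakest of them.

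The distance to genes followed. The median distance from the midpoint to the nearest protein-coding 5′ end was 32630 bases, against 2435 for peaks shared by all 4 lists, and 25.2% lay 100 kb or more away, against 8.81%. Within genes, 36.4% of the 615 MGE-absent peaks that fell in exactly 1 gene body lay in the 25% of its length nearest to the 5′ end, against 62.7% of 5090, and the median place was 42.6% of the way along the body, against 8.37%. Of the 670 intergenic ones, 123 (18.4%) lay in a long non-coding RNA gene, close to the 20% of intergenic peaks shared by all 4 lists. Of the intergenic peaks, 64.5% lay upstream of the nearest 5′ end in both groups.

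**Figure D3:**
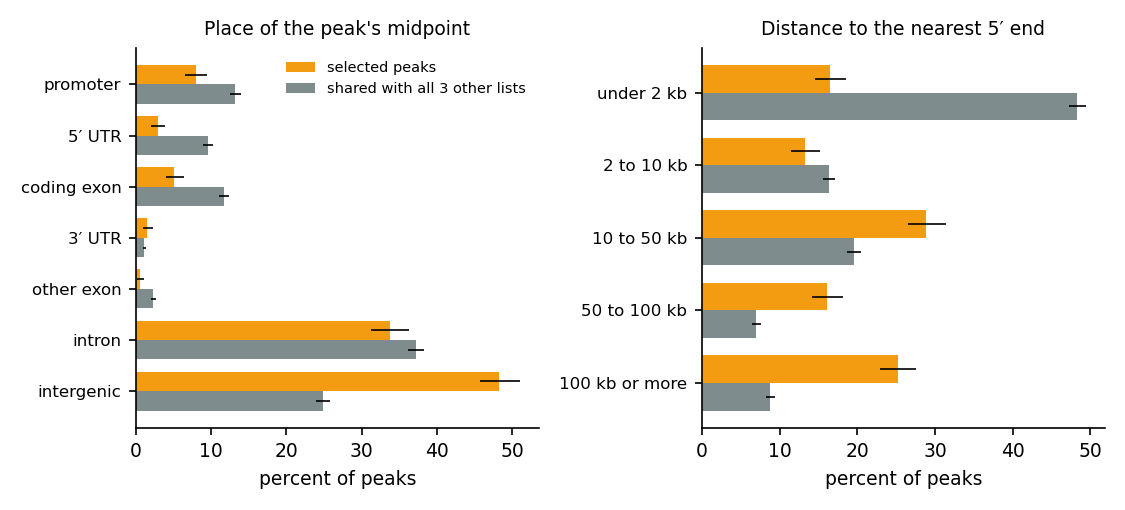
Left, the place of the peak's midpoint in protein-coding genes, and right, its distance to the nearest annotated 5′ end, as a percentage of 1386 MGE-absent peaks (orange) and 8271 peaks shared by all 4 lists (grey). Lines are exact 95% binomial intervals for counting error. The orange bars are longer for intergenic sequence (48.3% against 24.9%) and at 100 kb or more (25.2% against 8.81%), and shorter under 2 kb (16.5% against 48.3%).

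MGE-absent peaks were narrow and weak. Their median width was 700 bases (quartiles 470 and 1276), against 1899 for peaks shared by all 4 lists, and together they covered 1.36 Mb. The median −log10 q in LGE was 2.72 against 13.2, and the median fold enrichment over local background was 2.83 against 3.34. The weaker an LGE peak, the more often it lacked MGE. Of peaks shared with CGE and CTX, 45.5% had no MGE base at a −log10 q under 2, 37.2% from 2 to 3, 23.2% from 3 to 5, 8.93% from 5 to 10 and 0.862% (42 of 4873) at 10 or more.

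A strong minority remained within the set. In LGE, CGE and CTX alike, 329 MGE-absent peaks reached a −log10 q of 3, 85 reached 5 and 8 reached 10. Beside those at *Robo1* and *Myt1l*, the 8 were an intronic peak of *Galnt10*, a glycosyltransferase gene (chr11:57775129-57777687, 23.2, 13.4 and 38.1), one in an intron of the imprinted potassium channel gene *Kcnq1* (chr7:143332814-143336426, 15.9, 10.6 and 17.1), one 19.1 kb upstream of *Lmo1* (16.7, 11.6 and 19.1), and those described near *Gsx1* and *Efna5* and one 52.4 kb upstream of *Tnrc6a* (10.4, 16.7 and 23.9). The nearest MGE peak was between 2.16 and 234 kb from these 8. Of 1386, 211 (15.2%) met the conditions in all of 4 settings that changed the lists, namely a q-value under 0.001, joining of neighbouring peaks, equal covered bases and equal numbers of peaks.

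**Figure D4:**
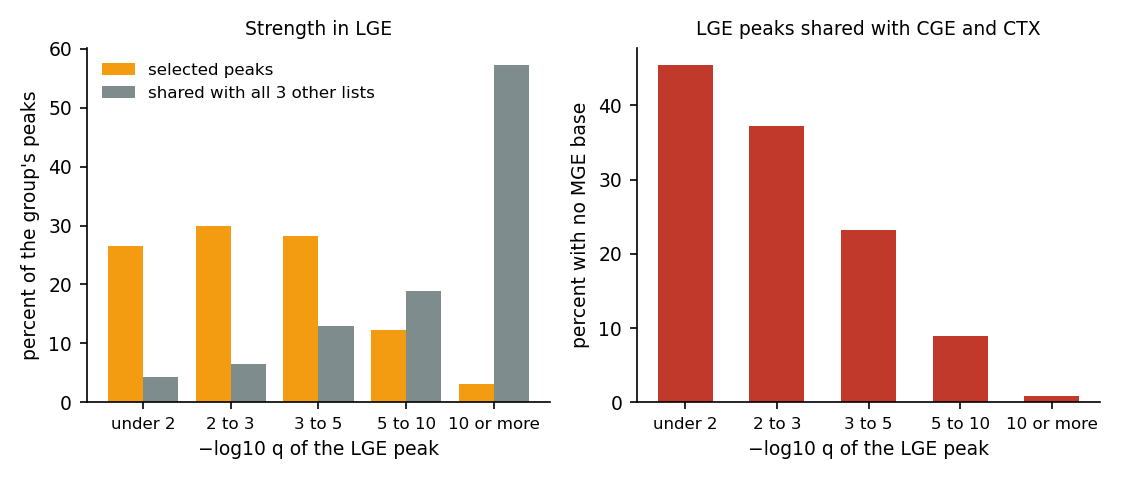
Left, the percentage of MGE-absent peaks (orange) and of peaks shared by all 4 lists (grey) in each class of −log10 q in LGE. Right, the percentage of LGE peaks shared with CGE and CTX that had no MGE base, by the same classes. The share without MGE was 45.5% in the weakest class and 0.862% in the strongest.

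The widest MGE-absent peaks were 4214 to 5649 bases, and they lay mostly in introns or between genes. The widest was in an intron of *Inpp5a*, 54.4 kb from the 5′ end of *Nkx6-2*, an MGE lineage homeobox gene, with a −log10 q of 12.02 in LGE, 7.69 in CGE and 8.65 in CTX. Others were in introns of *Lgr4*, a receptor for R-spondins (5196 bases), and the phosphatase genes *Ptprn2* (5094) and *Ptprb* (4329). A peak of 4659 bases lay in *Tac2*, which encodes the neuropeptide neurokinin B.

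Some MGE-absent peaks lay close together. Within 10 kb of another were 257 (18.5%), in 111 runs, of which 24 had 3 or more. Beside the run near *Nkx2-1*, the longest was one of 7 peaks in the 30617 bases from 77.3 to 108 kb downstream of the 5′ end of *Tle3*, a Groucho corepressor gene (chr9:61449464-61480080), where no MGE base was called and CTX covered 44.3%, LGE 26.5% and CGE 23.8%. With lists of equal covered bases CTX covered 44.3%, LGE 24.1% and CGE 8.69%. The strongest CGE peak there had a −log10 q of 5.84, and the others had 1.81 to 3.12. Counting all peaks nearest to *Tle3*, 11 of 13 shared with CGE and CTX had no MGE base, and for *Lmo1*, another LIM-only cofactor gene, the count was 8 of 13. A run of 4 upstream of *Lmo1* (chr7:109193678-109218392) also held no MGE base. *Sox2*, a progenitor factor, had 6 of 12. These genes, like the others given by nearest 5′ end, were picked after their counts were seen. Runs within genes were found in *Galnt10*, *Slit3*, *Erbb4* and *Robo1*, with 3 peaks each.

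Most genes with an MGE-absent peak had 1. Of 636 genes, 561 had 1, 47 had 2 and 28 had 3 or more, and 351 had an MGE base elsewhere in the span while 285 (44.8%) had none. *Slit3* and *Fgfr2*, an Fgf receptor gene, had 9 each, *Agap1* 7, *Wwox* 6 and *Lrmda*, *Megf11* and *Erbb4* 5. The annotated span of *Fgfr2* is 2963 kb and all 9 peaks lay nearer to the 5′ ends of other genes, mostly *Bub3*. *Gm20388*, with 11, is a read-through model of 4436882 bases, with its upstream 2 kb, that spans other genes.

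Of the remaining lists, several also had a share of genes above the 2.92% of all genes, some of them only slightly. Homeobox, Sox, Fox and T-box genes had 10 of 170 with a peak in the body or upstream 2 kb (5.88%), among them *Tshz2*, *Pax3*, *Tbx5* and *Lhx4*. Of the 687 shared peaks nearest to them 76 (11.1%) had no MGE base. Ion channel genes had 13 of 172 (7.56%), collagen genes 4 of 45 (8.89%), neurotransmitter receptor genes 5 of 105 (4.76%), with *Gabbr1*, *Gabbr2*, *Grm4*, *Drd3* and *Adra1b*, genes of synaptic vesicles 5 of 63 (7.94%), cadherins 3 of 72 (4.17%), phosphatases 3 of 61 (4.92%), solute carriers 13 of 371 (3.50%) and zinc finger and nuclear receptor genes 4 of 119 (3.36%). By the nearest 5′ end, however, 17 of 186 shared peaks (9.14%) at ion channel genes, 4 of 39 (10.3%) at collagen genes and 3 of 45 (6.67%) at synaptic vesicle genes had no MGE base, each below the 13.3% over all genes. Neurotransmitter receptor genes (9.26%), phosphatases (3.92%), solute carriers (11.6%) and zinc finger and nuclear receptor genes (7.32%) were also below it. Cadherins, with 6 of 43 (14%), were close to it. Wnt genes had 2 of 41, *Wnt2* and *Wnt5a*, Fgf genes 1 of 28 and ribosomal protein genes 1 of 76, *Rps19*, although 5 of the 22 shared peaks nearest to ribosomal protein genes had no MGE base. Genes of BMP and related ligands had 0 of 35, basic helix-loop-helix genes 0 of 45, and markers of endothelium, microglia and mesenchyme 0 of 11. Lists this short could not be set below the 2.92% of all genes. By the nearest 5′ end, 1 of 35 shared peaks (2.86%), 7 of 102 (6.86%) and 0 of 7 had no MGE base, in the same order. The last count allows a share of up to 42.9%. It was 6 of 79 (7.59%) for Wnt genes and 2 of 33 (6.06%) for Fgf genes. Of the promoters of these 11 markers, those of *Pecam1*, *Cdh5*, *Aif1*, *Csf1r*, *Cx3cr1* and *Lum* had no peak in any list. That of *Col1a1* was fully covered in all lists, that of *Kdr* to 84% to 100%, that of *Cldn5* to 45.8% to 50% and that of *Pdgfrb* to 4% to 24.6%. The *Col1a2* promoter was covered to 17.4% in MGE and 18.6% in LGE, and to 85.2% in CGE and 77% in CTX. The promoters of *Lhx6* and *Nkx2-1*, which define the MGE, were fully covered in MGE as in the other lists, so their called extent did not set the MGE list apart. The peak over the *Nkx2-1* promoter was weaker in MGE, with a −log10 q of 3.86 against 31.7 to 33.7 in the other lists.

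MGE peaks were often near. The median distance from an MGE-absent peak to the nearest MGE peak was 16.7 kb (quartiles 5.63 and 55.3 kb). Within 1 kb lay 40 (2.89%), within 5 kb 302 (21.8%), within 10 kb 528 (38.1%) and within 100 kb 1169 (84.3%). The nearest case was 10 bases from an MGE peak, 99.0 kb from the 5′ end of *Arap3*, and the farthest, 182 kb from *Nova1*, an RNA-binding protein gene, was 1562 kb from any. At the limits of the selection, the shared peaks with the fewest MGE bases that were left out had 7 and 9, near *Pmfbp1* and *Lmx1b*. The lowest CGE or CTX coverage within the set was 50.1%, and the highest just outside it was 49.9%. Between 50% and 55% lay 83 of the set, and between 45% and 50% 59 further peaks without an MGE base.

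The MGE list was the shortest of the 4 lists. It held 15384 peaks over 24.5 Mb with a median −log10 q of 3.38, against 16851 to 19196 peaks, 26.4 to 32.9 Mb and medians of 3.81 to 4.61 in the other lists. Applied to each list in turn, and with each of the other 3 as the source, the same conditions gave 10.5% to 13.3% of shared peaks without MGE, 7.53% to 9.40% without CTX, 3.14% to 4.05% without LGE and 2.03% to 2.61% without CGE. With lists of equal covered bases the shares were 3.86% to 5.13% without MGE, 12.9% to 15.3% without CTX, 5.17% to 7.30% without CGE and 1.51% to 1.98% without LGE. MGE was thus the list most often missing as deposited, and CTX was so with equal covered bases. Equal covered bases left MGE whole, down to a −log10 q of 1.01, and cut CGE at 3.68, LGE at 1.76 and CTX at 2.80. The change of order therefore follows in part by construction. The part of sequencing depth, sample number and peak strength in the absence of single peaks was not tested.

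**Figure D5:**
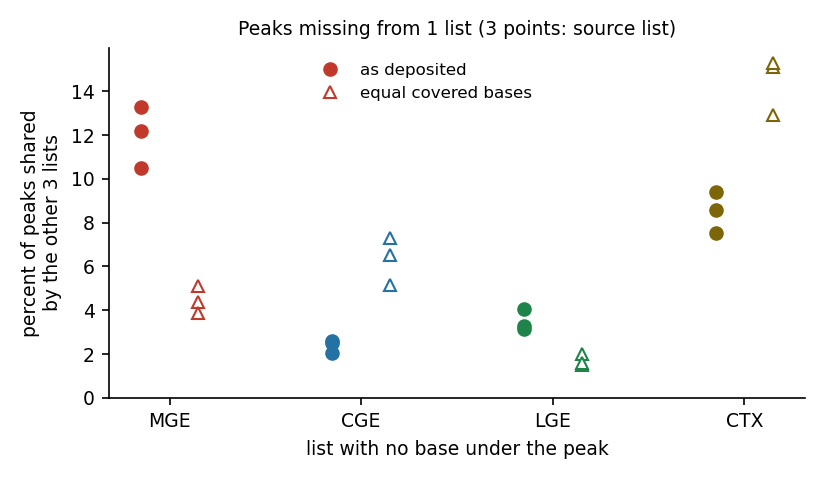
Peaks with at least 50% of their bases in 2 other lists and no base in the list named on the horizontal axis, as a percentage of the peaks shared by the 3 lists, with 1 point for each source list. Circles are the lists as deposited and triangles lists limited to equal covered bases. MGE has the highest circles (10.5% to 13.3%), and CTX the highest triangles (12.9% to 15.3%).

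The base composition of MGE-absent peaks was poorer in CpG. Their median GC content was 51.2%, against 55.2% for peaks shared by all 4 lists, and the median ratio of observed to expected CpG was 0.251 against 0.457. Peaks with at least 50% GC and a ratio of at least 0.6 made up 10.6% (exact 95% interval 9.03% to 12.3%) against 21.6% (20.7% to 22.5%). At promoters this turned round for whole peaks, with 51.5% of the 169 that touched a promoter against 33.5% of 3560. Away from promoters the shares were 4.93% and 12.5%. Peak width was not matched in these shares, and MGE-absent peaks were narrower (median over all peaks 700 bases against 1899). In the middle 300 bases the promoter groups were close, with medians of 18 and 16 CpG (quartiles 8 and 26 against 9 and 25). Away from promoters these medians were 4 and 8. The part of width in the turn at promoters was not tested. Repeat-masked bases made up a median of 10.0% and 9.18% of a peak. A search of the middle 300 bases on both strands found CAAGTG, the core of NKX2-1 sites, in 16.5% of MGE-absent peaks, 14.1% of peaks shared by all 4 lists and 14.7% of all LGE peaks. TAATTA, a homeodomain motif that reads the same on both strands, was found in 4.76%, 3.62% and 4.18%. The exact intervals for the first motif, 14.6% to 18.6% and 13.4% to 14.9%, overlapped. The share of shared peaks without MGE ran from 9.70% on chromosome 6 to 16.4% on chromosome 14.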

How the data were processed

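H3K27me3 CUT&Tag of 11 samples was analysed from 4 deposited broad peak lists, 1 per region. The authors aligned reads to mm10 with Bowtie2, removed blacklisted regions and duplicates (Picard), merged replicates (SAMtools) and called broad peaks with MACS. Versions and a control sample are not given in the sources used here. Each deposited peak has a fold enrichment, which is a ratio to local background, and −log10 of its p-value and q-value as the authors' peak caller wrote them. The deposited lists give no read counts per peak. Sequencing depths per replicate are stated in the study's methods, where their sum is lowest for MGE, and were not used in any computation.

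Peaks on chromosomes 1 to 19 and X were used, and 2 to 4 peaks per list on other sequences were left out. Coverage of each LGE peak by the bases of the other lists was computed in Python 3.11.15 with numpy 2.4.6, pandas 2.3.3 and scipy 1.17.1, and plotted with matplotlib 3.10.9. The scripts were tested on simulated lists. Protein-coding genes, each with a single 5′ end, came from GENCODE M21, and sequences from the RefSeq GRCm38 genome, of which mm10 is another name. Promoters were the 2 kb upstream, midpoints gave the place in a gene, and no significance test was run. Exact binomial intervals (Clopper-Pearson, 95%) cover counting error only, and a count of 0 among shared peaks was given the limit that 3 counts allow.

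Peaks and genes were named by a rule, namely the 10 strongest by the smallest −log10 q, the 10 widest, up to 10 genes per list with a peak in the body or upstream 2 kb, promoters without MGE and with 50% in the other lists, the 10 genes with most peaks, and the peaks nearest to and farthest from MGE peaks. Genes given by nearest 5′ end, stretches and runs were chosen after their values were seen, as were the coverage of loci and the gene list shares under other lists. The selection and the gene lists were chosen with earlier results of these data known. Some genes and sequences that the rule would name are not reported here.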

Additional observations from a re-analysis of the deposited data

How the results depend on the processing

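The selection was repeated under 13 alternatives, and 45 of 68 values stayed within the limits set for them (counts within 1.5 times, shares within their exact interval) while 23 moved. The share of shared peaks without MGE (13.3%) was 16.1% with a q-value under 0.001 in all lists, 15.5% with 1 base covered, 12.2% with peaks under 3 kb apart joined and with CGE peaks as the source, 10.6% with 80% covered, 10.5% with CTX peaks as the source, 10.4% with no MGE base within 5 kb, 10.0% with equal numbers of peaks, 5.13% with equal covered bases and 4.44% with a q-value under 0.001 except in MGE. In number, 1386 peaks became 856, 395 and 327 with 80% covered, equal covered bases and a q-value under 0.001 except in MGE, and 636 genes became 405, 194 and 154. The share touching a promoter (12.2%) was 21.1% with a q-value under 0.001 in all lists, 15.5% with CTX peaks as the source, 17.2% with 2 kb either side of the 5′ end and 18.7% with 5′ ends of all transcripts. The CpG-rich share (10.6%) was 13.7% with a q-value under 0.001 in all lists, 8.87% with it except in MGE and 13.4% with CTX peaks as the source. The fall in numbers with equal covered bases follows in part from the shorter CGE, LGE and CTX lists by construction, and for the other settings the cause was not tested.

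No paired analysis was possible because each region has a single merged list. Leaving out each replicate was not run, since the lists are merged. The precision of each list is limited by 2 MGE samples against 3 in the others, and by depth, which per the study's methods was lowest in sum for MGE.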
